A study of Mus musculus with 28 samples.

Results

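Astroglia of the mouse subependymal zone (SEZ), the tissue lining the lateral ventricles where neurons are still made in adults, were compared between 2 sorts of single cells. The first sort held tdTomato+ cells of Ki67-iresCreER +/ki Rosa-tdTomato +/ki mice, taken 60 days after 1 injection of 5 mg tamoxifen (the day-60 cells), from mice of 16 to 19 weeks. In these mice Cre is active in cells that express Mki67 at the time of tamoxifen, so tdTomato marks cells that divided then, and their progeny. The second sort held GFP+ cells of Troy-GFPiresCreER +/ki mice of 8 to 10 weeks, with no tamoxifen named, in which GFP follows Tnfrsf19, the gene of the receptor Troy. The labels give the strain Bl/6 for both sorts and do not state how many animals were pooled in a library. Both sorts had 4 libraries of 96 wells, and such a set fills 1 plate of 384 wells, so the spread between libraries may be technical only. Cells were selected on their measured transcripts: at least 1000 outside the ERCC spike-in, at least 30 per 10000 from Slc1a2, Slc1a3, Aldoc, Clu and Aqp4 summed, and less than 1 transcript of Mki67 plus Top2a and of Dcx. This rule kept 517 cells of the 660 cells with at least 1000 transcripts in both sorts, and of 1789 such cells in the 2688 wells of the whole series. They were 299 of 349 day-60 cells (73 to 79 per library) and 218 of 311 Troy-GFP cells (50 to 58 per library). The 8 genes of the rule get no test below.

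Adult SEZ stem cells are astroglia: they carry glutamate transporters and other genes of astrocytes, rest for long periods, and on activation give dividing progenitors that become neuroblasts of the olfactory bulb. Stem cells and ordinary astrocytes of the tissue share most of their transcripts, so the gate does not tell them apart. Thbs4, an extracellular glycoprotein, marks SEZ stem cells and reactive astroglia, Vim encodes an intermediate filament of immature glia, and Sox11 and Ccnd2 are known from progenitors. The comparison asks how astroglia descended from cells that once divided differ from astroglia that carry the Troy reporter. Cells were sorted into wells and read by SORT-seq, a form of CEL-seq that tags each transcript near its 3′ end. Levels are CPM, estimated transcripts per 1000000 in the summed cells of a library. For a single gene the total is that of the tested genes after trimmed-mean scaling. For sums over marker lists, and for genes on X and Y, it is all transcripts outside ERCC, so a sum and a gene in it are on slightly different scales. Folds are log2 values of day-60 over Troy-GFP ± standard error, and a gene was called at an adjusted p under 0.05.

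For 5 genes on which the results turn, the 250 bases before the gene start of RefSeq are shown from the RefSeq promoter table (GRCm38.p6), on the strand of the gene, to set genes that were lower beside genes that were higher. Other annotations can place a start elsewhere, and the Vim gene as GENCODE gives it begins before the window shown. The table held 53 of 73 genes named here. Capitals mark the letters TTGGC, or GCCAA as the same letters on the other strand. They are the half-site of the nuclear factor I family, of which Nfix is a called gene below; TTGGC can overlap the CCAAT box, written ATTGG on the other strand.
Thbs4 (lower in day-60 cells), chr13:92794819-92795068, minus strand: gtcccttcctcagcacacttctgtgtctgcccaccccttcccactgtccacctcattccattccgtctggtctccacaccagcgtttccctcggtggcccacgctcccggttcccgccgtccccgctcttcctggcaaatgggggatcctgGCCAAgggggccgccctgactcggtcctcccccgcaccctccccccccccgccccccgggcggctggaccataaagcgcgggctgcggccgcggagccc
Sox11 (lower), chr12:27342719-27342968, minus strand: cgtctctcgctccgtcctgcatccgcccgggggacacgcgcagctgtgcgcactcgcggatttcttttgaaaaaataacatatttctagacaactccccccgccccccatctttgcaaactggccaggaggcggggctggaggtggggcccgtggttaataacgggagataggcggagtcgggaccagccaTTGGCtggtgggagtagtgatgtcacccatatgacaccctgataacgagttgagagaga
Vim (lower), chr2:13574061-13574310, plus strand: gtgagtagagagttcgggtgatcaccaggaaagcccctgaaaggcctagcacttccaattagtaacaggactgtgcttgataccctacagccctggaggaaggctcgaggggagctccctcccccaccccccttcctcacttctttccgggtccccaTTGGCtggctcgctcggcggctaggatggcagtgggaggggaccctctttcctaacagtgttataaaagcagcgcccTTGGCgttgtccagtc
Sfrp5 (higher), chr19:42202253-42202502, minus strand: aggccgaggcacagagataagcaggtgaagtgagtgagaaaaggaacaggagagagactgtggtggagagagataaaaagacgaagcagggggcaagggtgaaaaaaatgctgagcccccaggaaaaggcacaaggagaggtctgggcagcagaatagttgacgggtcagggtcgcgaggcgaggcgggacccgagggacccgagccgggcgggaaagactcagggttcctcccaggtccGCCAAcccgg
Gpr37l1 (higher), chr1:135167682-135167931, minus strand: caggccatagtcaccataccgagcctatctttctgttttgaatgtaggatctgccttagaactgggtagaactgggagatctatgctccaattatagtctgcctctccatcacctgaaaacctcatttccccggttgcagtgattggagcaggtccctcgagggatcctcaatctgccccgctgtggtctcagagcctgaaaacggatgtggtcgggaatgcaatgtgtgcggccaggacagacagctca
The letters stood once before Thbs4, Sox11 and Sfrp5 and at 2 places before Vim, and were not found in the window of Gpr37l1. Of 32851 windows of the same length in the RefSeq promoter table, 41.5% hold them. A match is a description of letters and not a binding site.

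Before the genes, the libraries differed in several ways that move with the sorts. The summed astroglial cells held 393313 to 419729 transcripts per day-60 library and 273768 to 345204 per Troy-GFP library, and ERCC made up 7.50% to 8.66% of molecules in day-60 and 8.44% to 9.98% in Troy-GFP. The 4 Y-linked genes Ddx3y, Eif2s3y, Kdm5d and Uty stood at 0 in the day-60 libraries and summed to 427 to 480.2 CPM in the Troy-GFP libraries, while Xist was 465 to 793 CPM in day-60 and 0 to 7.32 CPM in Troy-GFP. The sorts therefore differed in sex as well as in mouse line, age and tamoxifen, and these cannot be told apart from the sort. Genes on the X and Y chromosomes were left out. The names of the deposited tables put all day-60 libraries and Troy-GFP libraries 3 and 4 on flow cell HVJH2BGXX. They put Troy-GFP libraries 1 and 2 on AHY73KBGXX. Values within HVJH2BGXX are therefore given beside the main ones for some genes, and the named calls lost there are listed. The libraries use the same 96 cell barcodes, and none of the 517 cells repeated another's column of values.

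The astroglial label held for most cells but not for all. The gate sum had a median of 255 per 10000 in day-60 cells and 253 in Troy-GFP cells. The lowest value inside the gate was 30.1 in day-60 and 31.5 in Troy-GFP cells, and the highest outside was 27.2 in day-60 and 29.3 in Troy-GFP cells. Within the gate, 1 day-60 cell and 33 Troy-GFP cells had been removed for Mki67 or Top2a, and 0 day-60 cells and 2 Troy-GFP cells for Dcx. In 8 day-60 cells the label went against the data. They held 942 to 2185 transcripts of Ttr per 10000 and 277 to 596 of the other choroid plexus markers, genes of the epithelium that makes cerebrospinal fluid, such as Enpp2, Kl and Prlr. The gate had let them in through Clu (22.9 to 41.8 per 10000), while Slc1a2, Slc1a3, Aldoc and Aqp4 summed to only 5.85 to 19.1. Libraries 1 to 4 held 4, 1, 2 and 1 of these cells, which gave 2.59% to 10.5% of a library's transcripts, and Troy-GFP held 0. Results are given with and without these 8 cells, a choice made after seeing the data. The remaining day-60 cells also carried some Ttr, at a median of 55.7, 4.00, 11.2 and 1.72 per 10000 in libraries 1 to 4, against 0 in each Troy-GFP library. In day-60 wells under 500 transcripts, 28.6% to 100% had Ttr as well, against 0% to 33.3% in Troy-GFP wells.

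**Figure D1:**
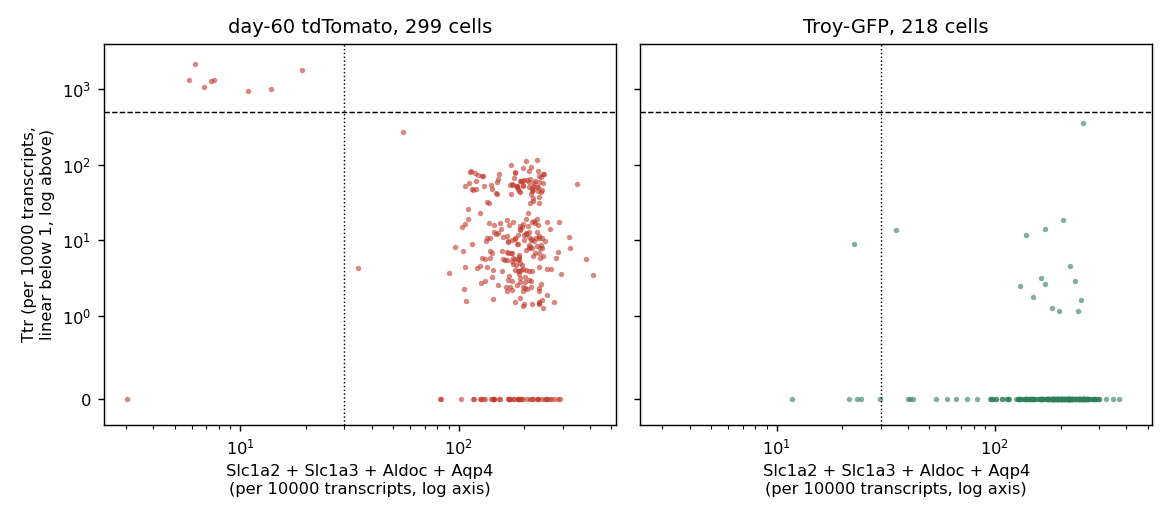
Ttr against the sum of Slc1a2, Slc1a3, Aldoc and Aqp4 in each astroglial cell, both per 10000 transcripts (symmetric log and log axes), for 299 day-60 cells (left) and 218 Troy-GFP cells (right); each point is a cell. The dashed line is 500 Ttr per 10000 and the dotted line 30 per 10000 of the 4 genes: the 8 choroid plexus cells stand at the upper left of the day-60 panel, and low Ttr is spread over most other day-60 cells.

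Of 6232 autosomal genes tested, 83 were higher in day-60 cells (1.33%) and 58 lower (0.931%), together 2.26%, by limma voom with Benjamini-Hochberg adjustment. The gate gene Aqp4 is 1 of the 83 and is not read as a result. The median fold of all genes was close to 0 (-0.0028). The libraries of the 2 sorts did not overlap for 122 of the 141 called genes. Overlap is read from the same values as the calls, and its share over all genes tested was not counted. The 122 are therefore no added support for the calls. For the highest and lowest genes of the naming rule, no overlap was also a condition of being named. Of the 141, 10 passed the level filter through 1 sort alone, with no library of the other sort at the minimum, so the filter itself let them in through a difference. Those named here are Igf2, Prlr, Kl and Sfrp5, which passed through day-60, and Cd24a and Mbp, which passed through Troy-GFP; they are not read as support for a list, and their fit with no filter is given where they are described. Without the 8 choroid plexus cells, 102 (1.66%) and 86 (1.4%) of 6145 genes were called, and these included 72 of the 83 and 58 of the 58. The 11 lost were Adipor1, Col9a3, Gde1, Hist1h2bc, Igf2, Kl, Laptm4b, Prlr, Ptgds, Stk39 and Ttr. Within flow cell HVJH2BGXX, with 4 day-60 and 2 Troy-GFP libraries, 40 genes were higher and 34 lower, and 133 of the 141 genes kept their direction. The count fell to 79 without day-60 library 2 and to 83 without Troy-GFP library 4, and 45 of the 141 genes were called in every fit that left out 1 library. Of the 61 called genes named here, 57 could be tested within the flow cell, all in the same direction. For the 13 highest and 14 lowest genes shown of the naming rule, a call there in that direction was a condition of being named. The fit within the flow cell also reuses libraries of the main fit, so the shared direction is not independent support. There the 21 genes Crym, Gpr37l1, Ntsr2, Hes6, Fos, Cryab, Sc5d, Msmo1, Sdc4, Ncan, Cd81, Trpm3, Meg3, Ttr, Ndufa13, Cycs, Atp1b2, Kcnk1, Hmgb1, Hmgn2 and Timp3 were no longer called, with 2 Troy-GFP libraries in place of 4.

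**Figure D2:**
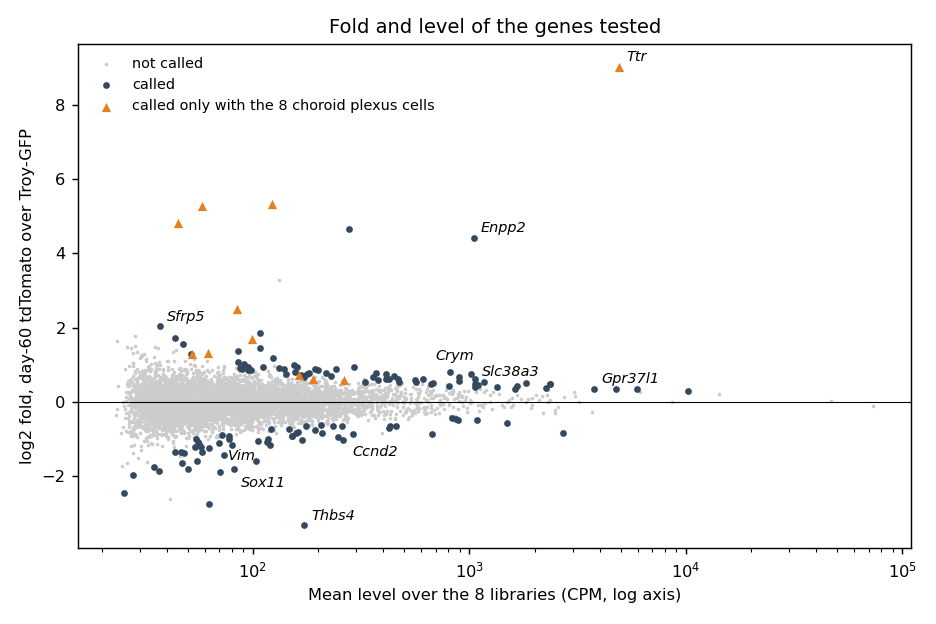
Log2 fold of day-60 tdTomato over Troy-GFP cells against the mean level over the 8 libraries (CPM, log axis) for every gene tested other than those of the gate; each point is a gene. Thbs4 is the lowest called gene at -3.32, and the orange triangles are the 11 genes called higher only with the 8 choroid plexus cells included.

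Of 18 tested genes of SEZ stem cells, 4 were lower in day-60 astroglia and 1 was higher. These calls made up 27.8% of the list, against 2.26% called over all genes. Thbs4 had 8.13, 51.2, 49.2 and 34.6 CPM in the day-60 libraries, against 248, 381, 347 and 256 CPM in the Troy-GFP libraries. No day-60 library came near a Troy-GFP library, and the fold was -3.32 ± 0.34 (adjusted p = 3.08e-08), the lowest of all called genes. It was -3.22 ± 0.32 (adjusted p = 1.20e-08) without the choroid plexus cells and -3.29 ± 0.36 (adjusted p = 2.68e-06) within the flow cell. Vim had 54.1, 66.9, 75.01 and 108 CPM in the day-60 libraries, against 156, 152, 125 and 198 CPM in the Troy-GFP libraries. The ranges did not overlap, with a fold of -1.08 ± 0.22 (adjusted p = 0.00414). Igfbp5, a secreted protein that binds insulin-like growth factors, had 143, 185, 192 and 308 CPM in the day-60 libraries, against 335, 269, 478 and 405 CPM in the Troy-GFP libraries. Day-60 library 4 overlapped Troy-GFP library 2, and the fold was -0.86 ± 0.19 (adjusted p = 0.00793). The remaining lower gene was Meg3, a long noncoding RNA abundant in neurons (fold -1.03 ± 0.23, adjusted p = 0.0088), and the higher one was Crym. The list median was -0.19. Gfap, the filament gene of stem cells and reactive astrocytes, averaged 39.5 ± 20.98 CPM in day-60 cells and 61.9 ± 40.9 CPM in Troy-GFP cells (SD, n = 4 each). Its fold was -0.48 ± 0.38 (adjusted p = 0.587), and -1.23 ± 0.38 (adjusted p = 0.114) within the flow cell. Tnfrsf19 itself averaged 173 ± 36.4 CPM in day-60 cells and 146 ± 10.6 CPM in Troy-GFP cells (fold 0.22 ± 0.19, adjusted p = 0.622), and Id3, a target of BMP signals, 515 ± 78.6 CPM in day-60 cells and 596 ± 80.2 CPM in Troy-GFP cells (fold -0.21 ± 0.14, adjusted p = 0.484). Egfr, the receptor of activated stem cells, had a fold of -0.14 ± 0.19 (adjusted p = 0.803). Igfbp5 was picked out after its values were seen. The ranges of Meg3 overlapped. A call was lost on leaving out 1 library for Meg3 (without day-60 library 4 or Troy-GFP library 4; adjusted p up to 0.0566).

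**Figure D3:**
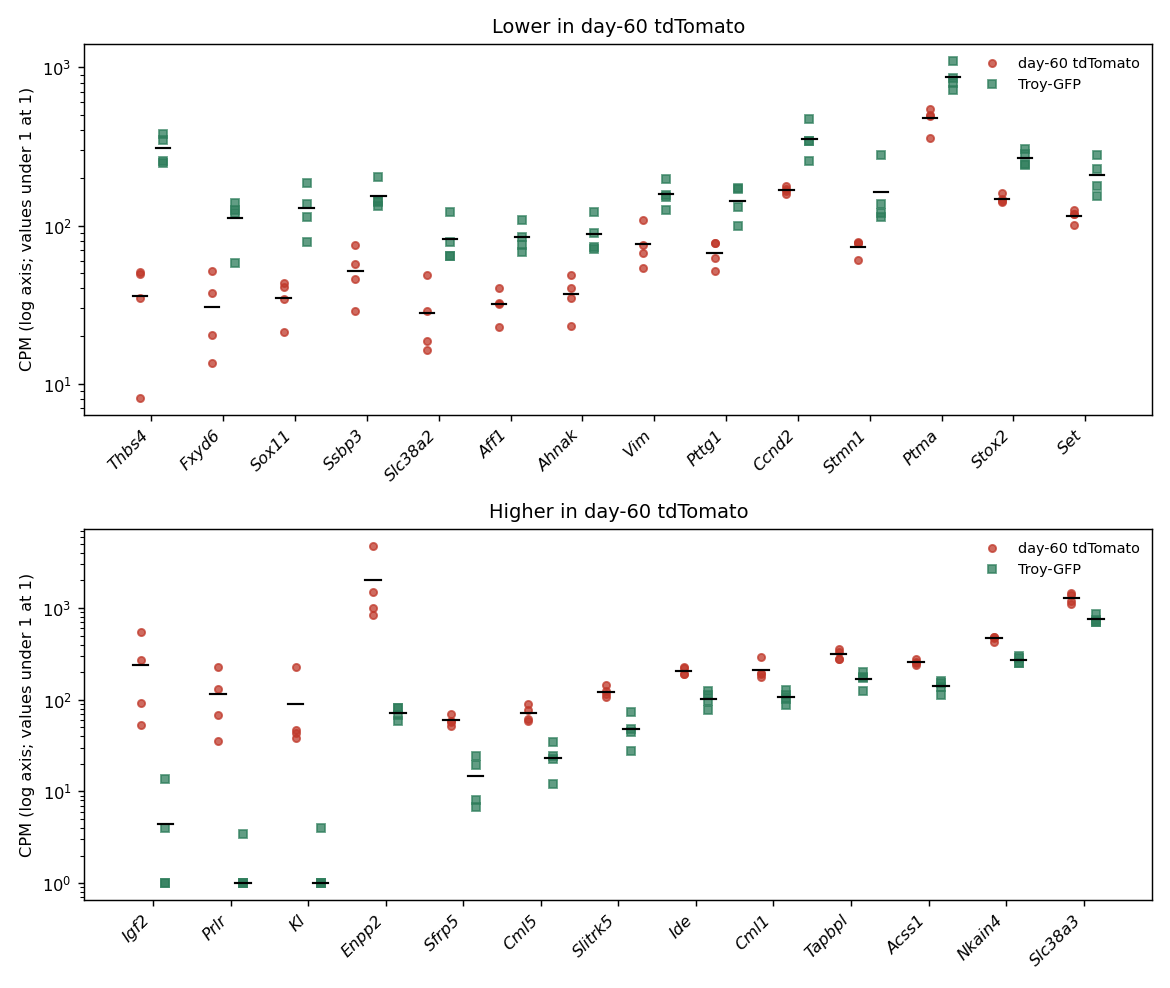
CPM on a log axis in each library for the 14 lowest (upper panel) and 13 of the 14 highest (lower panel) genes of the naming rule; red circles are day-60 tdTomato libraries, green squares Troy-GFP libraries and bars group means, with values under 1 drawn at 1. The rule took only genes whose libraries do not overlap between the sorts, so the groups of each gene stand apart by choice. The gap is widest for Thbs4 among the lower genes, and for Igf2, Prlr, Kl and Enpp2 among the higher ones.

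Of 8 tested genes of activated stem cells and progenitors, Sox11, Ccnd2 and Hes6 were lower. That is 37.5% of a short list, against 2.26% called over all genes. Sox11, a transcription factor of neuronal progenitors, had 40.6, 21.3, 34.6 and 43.02 CPM in the day-60 libraries, against 113, 78.8, 137 and 186 CPM in the Troy-GFP libraries. All 4 day-60 values lay below all Troy-GFP values (fold -1.81 ± 0.30, adjusted p = 0.000337). Ccnd2, a D-type cyclin that drives entry into the cell cycle, had 166, 178, 170.3 and 158 CPM in the day-60 libraries, against 343, 258, 341 and 473 CPM in the Troy-GFP libraries. The day-60 libraries lay close together, and Troy-GFP library 4 was the highest (fold -1.03 ± 0.17, adjusted p = 0.000412). Hes6, a neurogenic relative of the Notch targets, averaged 27.8 ± 13.5 CPM in day-60 cells and 68.2 ± 17.2 CPM in Troy-GFP cells (fold -1.37 ± 0.35, adjusted p = 0.0238). Leaving out 1 library ended the call of Hes6 (without day-60 libraries 2 or 3 or Troy-GFP libraries 1 or 4; adjusted p up to 0.145). None of the 8 was higher by limma voom, also at an unadjusted p under 0.05, and the list median was -0.60. Within the flow cell the folds were -2.21 ± 0.30 (adjusted p = 9.11e-05) for Sox11, -1.25 ± 0.19 (adjusted p = 0.000443) for Ccnd2 and -1.35 ± 0.41 (adjusted p = 0.113) for Hes6. Cells with Egfr or Dll1 numbered 121 of 299 in day-60 and 85 of 218 in Troy-GFP. When they were left out, a choice made after seeing the data, 3738 genes could be tested. Thbs4 (-3.44 ± 0.45, adjusted p = 6.59e-05) and Ccnd2 (-1.05 ± 0.20, adjusted p = 0.00446) stayed called in that fit. Sox11 (-1.34 ± 0.40, adjusted p = 0.102) and Vim (-0.94 ± 0.33, adjusted p = 0.183) kept their direction and were no longer called.

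Stmn1, Ptma, Set and Pttg1 were lower in day-60 astroglia as well, and so was Cd24a. Cd24a, the gene of the surface marker by which neuroblasts are sorted, had 8.10, 5.33, 28.8 and 0 CPM in the day-60 libraries, against 32.4, 30.8, 36.4 and 60.7 CPM in the Troy-GFP libraries (fold -2.45 ± 0.62, adjusted p = 0.0228). With no filter the fold was -2.44 ± 0.59 (adjusted p = 0.0168). Its day-60 sum rested on 14 cells with a transcript, against 25 Troy-GFP cells. Stmn1, a protein that destabilises microtubules, had 78.5, 77.4, 77.8 and 60.3 CPM in the day-60 libraries, against 119, 113, 137 and 278 CPM in the Troy-GFP libraries. Troy-GFP library 4 stood above all others (fold -1.01 ± 0.24, adjusted p = 0.0139). Of the 15 neuroblast markers 4 passed the level filter. Sox11, which the progenitor list also holds, was called. Cd24a was called too, but it passed the filter through Troy-GFP alone and is not read as support for the list. Summed over all 15 markers, the list reached 139.7 to 158 CPM in day-60 and 219 to 411 CPM in Troy-GFP libraries. Dlx5 was at 0 in both sorts and Dlx6os1 and Igfbpl1 in day-60 only. The part of neuroblast RNA in these folds was not tested. Ptma (prothymosin alpha, abundant in growing cells) had 502, 493, 547 and 360.2 CPM in the day-60 libraries, against 850.5, 719, 793 and 1099.8 CPM in the Troy-GFP libraries. It separated the sorts without overlap (fold -0.85 ± 0.14, adjusted p = 0.00032). Set, a histone chaperone, had a fold of -0.80 ± 0.19 (adjusted p = 0.0151). The chromatin proteins Hmgb1 and Hmgn2, picked out after their values were seen, had folds of -0.64 ± 0.16 (adjusted p = 0.0205) and -0.64 ± 0.17 (adjusted p = 0.0372). Pttg1, the securin that inhibits the separation of sister chromatids until anaphase, averaged 67.3 ± 12.6 CPM in day-60 cells and 143 ± 34.9 CPM in Troy-GFP cells (fold -1.04 ± 0.23, adjusted p = 0.00725). Calls that did not hold without 1 library were those of Cd24a (without Troy-GFP library 4; adjusted p 0.0519), Stmn1 (without Troy-GFP library 4; adjusted p 0.0889), Set (without day-60 library 3 or Troy-GFP libraries 3 or 4; adjusted p up to 0.0844), Hmgb1 (without day-60 library 2 or Troy-GFP libraries 2 or 4; adjusted p up to 0.0962) and Hmgn2 (without day-60 libraries 1, 2 or 3 or Troy-GFP libraries 1, 3 or 4; adjusted p up to 0.133). Of the S phase list 2 genes were tested, and limma voom called neither, though both were lower at an unadjusted p under 0.05: Pcna, the sliding clamp of DNA polymerase, had a fold of -0.56 ± 0.21 (adjusted p = 0.171) and Rpa2, which binds single-stranded DNA, -1.14 ± 0.36 (adjusted p = 0.0924).

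Slc38a2 was lower and Slc38a3 higher in day-60 astroglia. Slc38a2, a sodium-coupled neutral amino acid transporter, had 16.2, 18.7, 28.8 and 48.9 CPM in the day-60 libraries, against 64.4, 79.03, 64.5 and 121 CPM in the Troy-GFP libraries. The ranges did not overlap (fold -1.60 ± 0.34, adjusted p = 0.00652). Its relative Slc38a1 averaged 23.9 ± 11.2 CPM in day-60 cells and 76.8 ± 14.5 CPM in Troy-GFP cells (fold -1.79 ± 0.37, adjusted p = 0.00476). The taurine transporter Slc6a6 had 5.40, 8.01, 11.5 and 64.5 CPM in the day-60 libraries, against 90.4, 103, 60.5 and 158 CPM in the Troy-GFP libraries. Day-60 library 4 was above Troy-GFP library 3, and the fold was -2.74 ± 0.51 (adjusted p = 0.00223). Slc38a3, the glutamine transporter of astrocytes, went the other way with 1197, 1376, 1106 and 1447 CPM in the day-60 libraries, against 706, 863, 707 and 743 CPM in the Troy-GFP libraries. Its fold was 0.76 ± 0.12 (adjusted p = 0.000134), and 0.81 ± 0.15 (adjusted p = 0.00317) within the flow cell. Slc38a1, Slc6a6 and Nfix were picked out after their values were seen. Other genes of the naming rule that were lower were Fxyd6, a regulator of the sodium pump (fold -1.88 ± 0.36, from 13 day-60 and 35 Troy-GFP cells), and Ssbp3, a partner of LIM-domain transcription factors (-1.60 ± 0.25). So were Aff1, a part of elongation complexes (-1.35 ± 0.29), the large scaffold protein Ahnak (-1.24 ± 0.28) and Stox2 (-0.84 ± 0.17). Nfix, a transcription factor of the nuclear factor I family that is known in stem cell quiescence, had 375, 303, 309 and 355 CPM in the day-60 libraries, against 550.0, 458, 456 and 641 CPM in the Troy-GFP libraries (fold -0.64 ± 0.14, adjusted p = 0.0088). No day-60 library reached a Troy-GFP library. Without 1 library, calls were lost for Ahnak (without Troy-GFP library 4; adjusted p 0.053) and Nfix (without Troy-GFP library 4; adjusted p 0.0517).

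Transporters, channels and gap junction proteins of mature astrocytes had the most called genes among the lists that were higher. Of 21 tested genes of that list 7 were higher and 0 lower, also at an unadjusted p under 0.05, with a median of 0.30 and 17 folds above 0. The 7 made up 33.3% of the list, against 1.33% called higher over all genes. Within the flow cell, 4 of 21 were higher. Without the choroid plexus cells, 8 were higher. Gja1, the connexin that couples astrocytes into networks, had 2720.5, 2608, 2869.9 and 2854 CPM in the day-60 libraries, against 2175, 1894, 2065 and 1703 CPM in the Troy-GFP libraries. Every day-60 library was above every Troy-GFP library (fold 0.50 ± 0.09, adjusted p = 0.00139). Within the flow cell it was 0.55 ± 0.11 (adjusted p = 0.00502). Slc39a12, a zinc transporter, had 693, 748, 793 and 735 CPM in the day-60 libraries, against 502, 476, 503 and 433 CPM in the Troy-GFP libraries. The ranges did not overlap (fold 0.63 ± 0.12, adjusted p = 0.00295). Atp1b2, a subunit of the sodium pump, and the potassium channel Kcnk1 had folds of 0.36 ± 0.082 (adjusted p = 0.0103) and 0.43 ± 0.12 (adjusted p = 0.035). The cation channel Trpm3 had a fold of 0.93 ± 0.19 (adjusted p = 0.00325) that was 0.59 ± 0.17 (adjusted p = 0.0407) without the choroid plexus cells. Slc4a4, the bicarbonate transporter, missed the threshold with those cells (adjusted p = 0.0629) and passed without them, at 0.45 ± 0.10 (adjusted p = 0.00784). Glul, which makes glutamine from glutamate, was not called, with 2452 ± 87.6 CPM in day-60 cells and 2688 ± 248 CPM in Troy-GFP cells (fold -0.13 ± 0.086, adjusted p = 0.477). The calls of Atp1b2 (without day-60 library 2 or Troy-GFP libraries 1 or 2; adjusted p up to 0.0749) and Kcnk1 (without day-60 libraries 2, 3 or 4 or Troy-GFP libraries 1 or 3; adjusted p up to 0.151) did not hold without 1 library. Gja1, Slc39a12, Atp1b2, Kcnk1 and Slc4a4 were picked out after their values were seen.

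Of 23 tested genes known from parenchymal astrocytes, Gpr37l1 and Ntsr2 were higher, and neither was called within the flow cell. They made up 8.70% of the list, against 2.26% called over all genes. Gpr37l1, an orphan receptor of astrocytes, had 3932, 4199, 4198 and 4570.4 CPM in the day-60 libraries, against 3107, 3182, 3630.0 and 3266 CPM in the Troy-GFP libraries. The 4 day-60 values were the higher ones (fold 0.36 ± 0.079, adjusted p = 0.00721). Within the flow cell it was 0.29 ± 0.091 (adjusted p = 0.12). Ntsr2, a neurotensin receptor, had a fold of 0.35 ± 0.095 (adjusted p = 0.0363). Leaving out 1 library ended the call of Ntsr2 (without day-60 libraries 2 or 3 or Troy-GFP libraries 1, 2, 3 or 4; adjusted p up to 0.15). Of the 23, 19 had folds above 0, with a median of 0.22. Of 4 tested reactive astrocyte genes none was called by limma voom and 1 was lower at an unadjusted p under 0.05, with folds between -1.45 (Hspb1) and 0.48 (Srgn). Genes of the gate, which chose the cells, are given as levels only. Slc1a2 had 8648, 9882, 10318 and 10437 CPM in day-60 and 11161, 11416, 11578 and 11054 CPM in Troy-GFP libraries. Slc1a3 had 4940.2, 4961, 4899 and 5026 CPM in day-60 and 4585, 4717, 4719 and 4301 CPM in Troy-GFP libraries. Aldoc ranged over 3922 to 4827 CPM in day-60 and 3819 to 4081 CPM in Troy-GFP libraries. Aqp4, the water channel of astrocyte endfeet, ranged over 1382 to 1816 CPM in day-60 and 994 to 1444 CPM in Troy-GFP libraries. Clu, the chaperone clusterin, ranged over 6664 to 7645 CPM in day-60 and 6013 to 7182 CPM in Troy-GFP libraries, with overlap.

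Of the enzymes of cholesterol synthesis, which astrocytes carry out for neurons, Sc5d and Msmo1, which act late in the pathway, were higher. Sc5d had 168, 155, 205 and 201 CPM in the day-60 libraries, against 106, 95.9, 96.7 and 88.5 CPM in the Troy-GFP libraries. The ranges did not overlap (fold 0.88 ± 0.19, adjusted p = 0.00807). Msmo1 averaged 1225 ± 23.6 CPM in day-60 cells and 889 ± 159 CPM in Troy-GFP cells (fold 0.48 ± 0.11, adjusted p = 0.0131). Dhcr7, another late enzyme, picked out after its values were seen, averaged 173 ± 37.9 CPM in day-60 cells and 104 ± 15.2 CPM in Troy-GFP cells and passed without the choroid plexus cells, at 0.76 ± 0.20 (adjusted p = 0.0284), against 0.69 ± 0.21 (adjusted p = 0.0665) with them. All 21 genes of the cholesterol list were tested, 2 were higher, 0 lower (also at an unadjusted p under 0.05), and the median was 0.18. The called share was 9.52%, against 2.26% over all genes. The early enzyme Hmgcs1 had a fold of 0.12 ± 0.16 (adjusted p = 0.798). Within the flow cell the folds were 0.94 ± 0.26 (adjusted p = 0.0758) for Sc5d and 0.42 ± 0.14 (adjusted p = 0.149) for Msmo1. Among 29 tested lipid genes 1 was higher and 1 lower, together 6.90%, against 2.26% called over all genes. The higher one was Pla2g7, a secreted phospholipase. It averaged 1375 ± 74.6 CPM in day-60 cells and 956 ± 189 CPM in Troy-GFP cells (fold 0.54 ± 0.12, adjusted p = 0.00721). The lower one is not reported here by name. Apoe, the main lipoprotein of astrocytes, averaged 15185 ± 471 CPM in day-60 cells and 13229.9 ± 1706 CPM in Troy-GFP cells (fold 0.21 ± 0.065, adjusted p = 0.0724) and passed without the choroid plexus cells, at 0.26 ± 0.06 (adjusted p = 0.00776). Single libraries decided the calls of Msmo1 (without day-60 library 2 or Troy-GFP libraries 1 or 4; adjusted p up to 0.0845) and Pla2g7 (without Troy-GFP library 4; adjusted p 0.0527).

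Of 28 tested matrix and adhesion genes, Cd81, Ncan and Timp3 were higher. Their share of the list was 10.7%, against 2.26% called over all genes. Cd81, a tetraspanin, averaged 1901 ± 167 CPM in day-60 cells and 1405 ± 127 CPM in Troy-GFP cells (fold 0.44 ± 0.10, adjusted p = 0.0088). Ncan, a proteoglycan of brain matrix, averaged 390.2 ± 23.03 CPM in day-60 cells and 271 ± 33.8 CPM in Troy-GFP cells (fold 0.53 ± 0.15, adjusted p = 0.0433). Timp3, an inhibitor of matrix proteases picked out after its values were seen, was higher too (fold 0.42 ± 0.10, adjusted p = 0.0204). None of the 28 was lower by limma voom, 2 were at an unadjusted p under 0.05, and the median was 0.17. Sdc4, a cell-surface proteoglycan that binds growth factors, had 91.9, 107, 104 and 118 CPM in the day-60 libraries, against 216, 188, 234 and 157 CPM in the Troy-GFP libraries. It was lower without overlap (fold -0.91 ± 0.19, adjusted p = 0.00443). The calls lost without 1 library were those of Ncan (without day-60 libraries 1, 2, 3 or 4 or Troy-GFP libraries 1, 2 or 3; adjusted p up to 0.16), Cd81 (without day-60 library 2; adjusted p 0.0757) and Timp3 (without day-60 library 2 or Troy-GFP libraries 2 or 4; adjusted p up to 0.128).

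**Figure D4:**
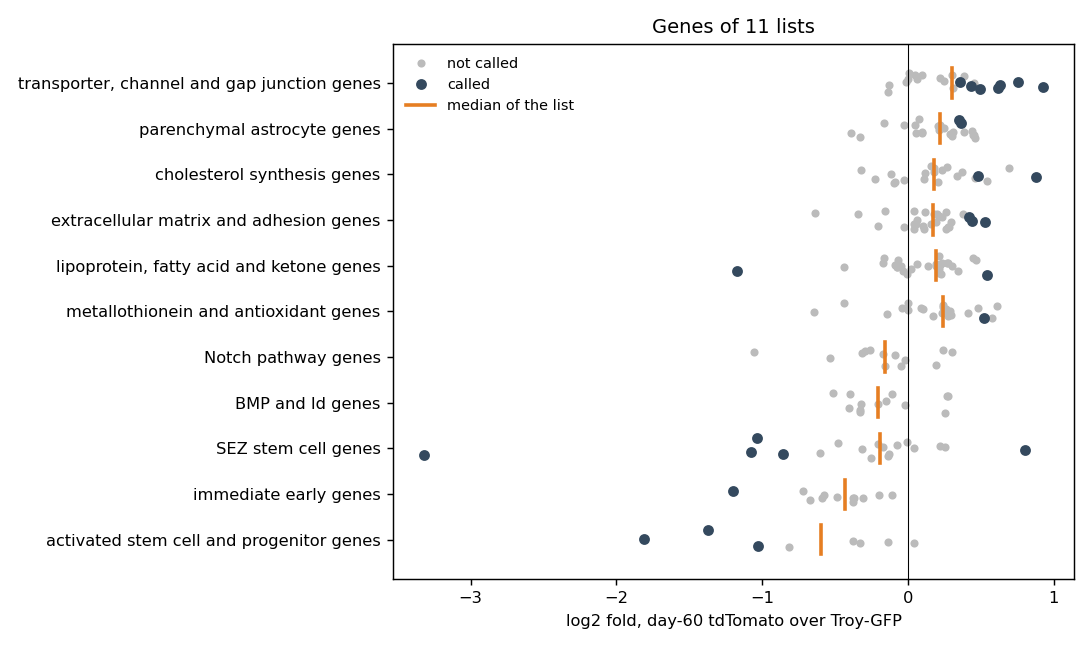
Log2 fold of day-60 tdTomato over Troy-GFP for the tested genes of 11 lists; each point is a gene, dark where called at an adjusted p under 0.05, and the orange bar is the list's median. Called points lie right of 0 in the transporter list and left of 0 in the activated stem cell list, and Thbs4 is the point farthest left.

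Among the 13 genes shown of the 14 highest of the naming rule, Sfrp5, a secreted Wnt inhibitor, followed the choroid plexus genes. Sfrp5 had 70.3, 58.8, 57.6 and 51.7 CPM in the day-60 libraries, against 19.3, 6.84, 8.05 and 24.2 CPM in the Troy-GFP libraries. Its transcripts lay in 55 day-60 cells and 11 Troy-GFP cells (fold 2.04 ± 0.50, adjusted p = 0.0193), and with no filter the fold was 2.07 ± 0.44 (adjusted p = 0.00546). No other gene of the 19 tested in the Wnt list was called. Slitrk5, a synaptic adhesion protein, had 124, 144, 115 and 106 CPM in the day-60 libraries, against 74.1, 27.4, 48.4 and 44.3 CPM in the Troy-GFP libraries. It was higher in each day-60 library (fold 1.37 ± 0.27, adjusted p = 0.00323). The insulin-degrading enzyme Ide (fold 1.00 ± 0.19), the acetyl-CoA synthetase Acss1 (0.85 ± 0.17) and Tapbpl, which edits peptides on MHC class I (0.88 ± 0.17), were also higher. So were Nkain4, a partner of the sodium pump (0.77 ± 0.14), and Cml1 and Cml5, related acetyltransferase genes on chromosome 6 (0.95 ± 0.20 and 1.56 ± 0.39). Sequence shared by these relatives could split their reads. Leaving out 1 library ended the calls of Sfrp5 (without Troy-GFP library 2; adjusted p 0.0536) and Cml5 (without Troy-GFP libraries 1 or 4; adjusted p up to 0.0677). Igf2, Prlr, Kl and Enpp2 completed the 13. They were found in 55, 20, 17 and 177 of 299 day-60 cells, so not only in the 8 choroid plexus cells. Igf2, a growth factor of choroid plexus and meninges, had 548, 93.3, 271 and 52.5 CPM in the day-60 libraries, against 0, 13.7, 0 and 4.02 CPM in the Troy-GFP libraries. Prlr, the prolactin receptor, had 227, 35.4, 129.7 and 68.7 CPM in day-60 libraries and a single transcript in all Troy-GFP libraries. Kl, the ageing-related protein Klotho, had 229.7, 46.8, 43.7 and 37.9 CPM in day-60 libraries and likewise a single Troy-GFP transcript. All 3 were also called with no filter, and no fold is given as their Troy-GFP libraries were at or near 0. None of these 3 passed the level filter once the 8 choroid plexus cells were left out. Enpp2 had 4739, 994, 1514 and 835 CPM in the day-60 libraries, against 80.6, 58.4, 68.6 and 80.7 CPM in the Troy-GFP libraries (fold 4.42 ± 0.51), and 1.64 ± 0.37 (adjusted p = 0.00675) without those cells.

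Among stress and metal-binding genes, Mt2 and Cryab were higher and Fos was lower. Mt2, a metallothionein, had 2051, 2416, 2366 and 1790.0 CPM in the day-60 libraries, against 1647, 1563, 1438 and 1308 CPM in the Troy-GFP libraries. No library overlapped (fold 0.52 ± 0.10, adjusted p = 0.00325). Cryab, a small heat shock protein, had 243, 85.5, 208 and 103 CPM in the day-60 libraries, against 64.8, 27.4, 80.7 and 52.3 CPM in the Troy-GFP libraries (fold 1.46 ± 0.33, adjusted p = 0.0088). The libraries did not overlap, and the fold within the flow cell was 1.13 ± 0.42 (adjusted p = 0.196). It was the only called of 16 tested chaperone genes. Fos, an immediate early gene, averaged 35.8 ± 20.4 CPM in day-60 cells and 79.4 ± 33.4 CPM in Troy-GFP cells, and its ranges overlapped (fold -1.20 ± 0.33, adjusted p = 0.0452). All 12 tested immediate early genes had folds below 0, with a median of -0.43, and Fos was the only one called, while 6 had an unadjusted p under 0.05. None of 16 circadian, 16 interferon and MHC class I, 13 Notch, 13 BMP and Id, 16 glycolysis, 10 regional patterning or 33 proteasome genes tested was called by limma voom or limma trend. At an unadjusted p under 0.05, 13 of these 117 genes were higher and 5 lower. Their medians lay between -0.21 (BMP and Id) and 0.25 (interferon). Of 71 tested cytosolic ribosomal protein genes 1 was lower, Rpl4 (fold -0.64 ± 0.14, adjusted p = 0.00721), and 58 had folds of 0 or below, with a median of -0.24. The called share of this list was 1.41%, against 2.26% over all genes. Without the choroid plexus cells 11 were lower (15.5%, against 3.06% called over all genes) and the median was -0.36. Of 74 respiratory chain genes 2 were higher, Cycs (cytochrome c, 0.70 ± 0.17, adjusted p = 0.0166) and Ndufa13 of complex I (0.79 ± 0.19, adjusted p = 0.0166). That is 2.70% of the list, near the 2.26% called over all genes. The respiratory list median was 0.28, and 0.15 without the choroid plexus cells. Not every fit without 1 library kept the calls of Cryab (without Troy-GFP library 2; adjusted p 0.074), Fos (without day-60 libraries 2, 3 or 4 or Troy-GFP libraries 1, 2 or 3; adjusted p up to 0.18), Cycs (without day-60 library 3 or Troy-GFP libraries 2, 3 or 4; adjusted p up to 0.0712) and Ndufa13 (without day-60 libraries 1 or 2 or Troy-GFP libraries 3 or 4; adjusted p up to 0.0725).

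The share of cells with a given transcript was read after thinning each cell to 1000 transcripts, and tested with exact 2-sided permutations of 4 against 4 library values, which cannot give a p below 0.0286. Thbs4 was found in 1.27%, 4.11%, 2.70% and 2.74% of cells in the day-60 libraries. In the Troy-GFP libraries it was in 12.1%, 22%, 21.2% and 17.2%. The groups did not overlap, and p was the smallest the exact permutation test allows (0.0286; 0.143 after adjustment over 5 measures). Unthinned, 6.11% ± 3.29 of day-60 cells and 30.4% ± 5.47 of Troy-GFP cells had Thbs4 (SD, n = 4 each), so the lower sum went with fewer cells that had the gene. Those that had it also held less: a median of 3.68 per 10000 in 18 day-60 cells and 7.43 in 66 Troy-GFP cells. Of 558 cells with Dcx and below the gate in the whole series (median 5872 transcripts), 0 had Thbs4 after the same thinning, which allows a share of up to 0.538%, 2 had Crym and 1 had Agt.

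Crym, a protein that binds thyroid hormone, was found in 50.2% of day-60 cells and 44.95% of Troy-GFP cells before thinning. Its positive cells held a median of 15.1 per 10000 in day-60 and 6.52 per 10000 in Troy-GFP. As a level it had 726, 1255, 898 and 1181 CPM in the day-60 libraries, against 423, 423, 935 and 661 CPM in the Troy-GFP libraries. Troy-GFP library 3 lay within the day-60 range, the fold was 0.80 ± 0.17 (adjusted p = 0.00721), and it was 0.33 ± 0.19 (adjusted p = 0.448) within the flow cell. Single libraries also decided the call of Crym (without day-60 library 2 or Troy-GFP libraries 1 or 2; adjusted p up to 0.0832). The thinned share was 34.9% ± 7.86 in day-60 and 25.3% ± 6.99 in Troy-GFP libraries (exact permutation p = 0.143, adjusted 0.238). Agt, the gene of angiotensinogen that marks astrocytes of some regions, was in 10.03% ± 1.26 of day-60 and 9.61% ± 5.79 of Troy-GFP cells (exact permutation p = 0.914), and its fold was 0.46 ± 0.34 (adjusted p = 0.553). Its Troy-GFP libraries were spread on both sides of the day-60 libraries. Median transcripts per cell averaged 5028 ± 173 in day-60 and 5429.6 ± 613 in Troy-GFP libraries (exact permutation p = 0.314, adjusted 0.393). Genes per cell at 1000 transcripts averaged 714 ± 4.5 in day-60 and 726 ± 10.5 in Troy-GFP libraries (exact permutation p = 0.0571, adjusted 0.143).

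**Figure D5:**
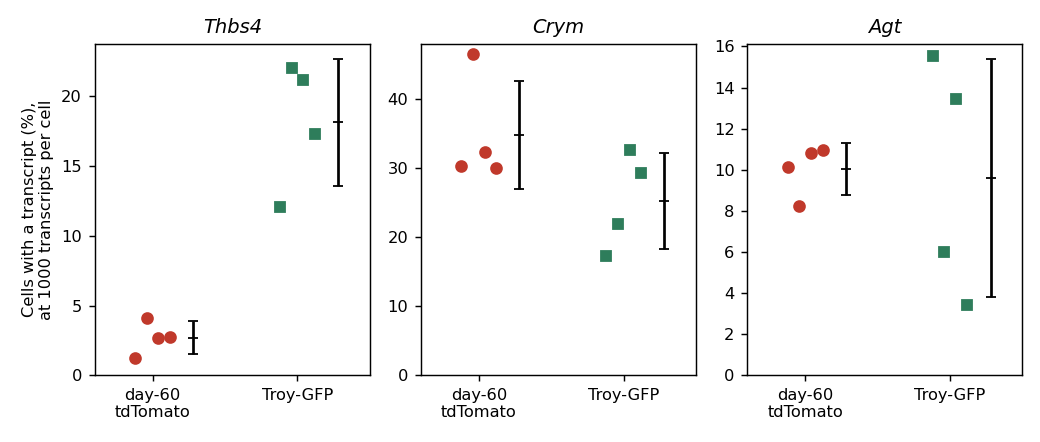
Percent of astroglial cells with Thbs4, Crym or Agt after thinning each cell to 1000 transcripts; each point is a library, day-60 tdTomato on the left (red circles) and Troy-GFP on the right (green squares), and bars are the mean ± SD of 4 libraries. Thbs4 separates the sorts, while Crym and Agt overlap.

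Vim and Gfap were found in a larger share of the cells with Thbs4 than of the other cells, in either sort. Counting cells of a sort together, Vim was found in 11 of 18 day-60 cells with Thbs4 and in 47 of 281 without it, and in 39 of 66 Troy-GFP cells with Thbs4 and 34 of 152 without it. Gfap was found in 7 of 18 day-60 cells with Thbs4 and 14 of 281 without it, and in 16 of 66 Troy-GFP cells with Thbs4 and 13 of 152 without it. Cells with Thbs4 had a median of 5557 transcripts and cells without it 4990.4 in day-60, and 5244 and 5400.4 in Troy-GFP. Crym was in 8 of 18 and 142 of 281 day-60 cells, and in 30 of 66 and 68 of 152 Troy-GFP cells, with and without Thbs4. Thbs4 was in 3 of 37 day-60 cells with Sox11 and 15 of 262 without it, and in 24 of 78 Troy-GFP cells with Sox11 and 42 of 140 without it. Ccnd2 was in 15 of 37 day-60 cells with Sox11 and 102 of 262 without it, and in 48 of 78 Troy-GFP cells with Sox11 and 79 of 140 without it. These counts are descriptions with no test, and cells of a library share its source.

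Astroglial cells of the GLAST/EGF sort, 97 cells in 4 libraries that pass the same gate, give 1 more set of levels, with no test. They came from mice of 8 to 10 weeks and were sorted on an antibody to GLAST, on binding of EGF, or on both, and they were scaled together with the other 8 libraries. Sox11 averaged 399.8 ± 225 CPM there and Ccnd2 880.0 ± 231 CPM, above both other sorts. Thbs4 had 25.03, 256, 26.1 and 21.6 CPM in the 4 libraries. Library 2 was near the Troy-GFP levels, and the other 3 averaged 24.2 ± 2.39 CPM (SD, n = 3), below the day-60 mean. Vim averaged 181 ± 51.8 CPM. Slc38a3 averaged 627 ± 256 CPM and Gpr37l1 2953 ± 739 CPM, but library 1 stood apart from the rest. It had 974 CPM for Slc38a3, above every Troy-GFP library, and 4040 CPM for Gpr37l1, within the day-60 range. The other 3 averaged 511 ± 132 CPM for Slc38a3 and 2590 ± 177 CPM for Gpr37l1 (SD, n = 3), below the Troy-GFP means.

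Genes near the altered loci were counted because mouse lines can differ in flanking sequence. Within 20 Mb of Mki67, 5 of 113 tested genes were called (4.42%), namely Cd81, Crym, Gde1, Igf2 and Pik3c2a, all higher. Without the 8 choroid plexus cells 3 of these 5 stayed called, Gde1 and Igf2 did not, and Dhcr7 was added (4 of 107, 3.74%, against 3.06% over all genes). Within 20 Mb of Tnfrsf19, 3 of 117 were called (2.56%), and within 20 Mb of Gt(ROSA)26Sor, 3 of 93 (3.23%), against 2.26% over all genes. Those near Tnfrsf19 were Dad1, Ddhd1 and Itm2b, all higher. Those near Gt(ROSA)26Sor included Ccnd2, which was lower, and Tapbpl, which was higher. The part of flanking sequence in the called genes was not tested.

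Markers of other cell types, choroid plexus aside, summed to less than 1000 CPM per list and library. Ependymal markers summed to 43.4 to 113 CPM in day-60 and 57.01 to 358 CPM in Troy-GFP libraries, with Ccdc153 and Tmem212 at 0 in day-60. Without the 8 choroid plexus cells the day-60 sum was 17.4 to 41.8 CPM, below every Troy-GFP library, with 5 of the 14 markers at 0. Endothelial markers summed to 28.9 to 249.6 CPM in day-60 and 18.2 to 495 CPM in Troy-GFP libraries. Microglia and macrophage markers summed to 94.3 to 177 CPM in day-60 and 55.2 to 95.3 CPM in Troy-GFP libraries, with Lyz2 and Aif1 at 0 in both sorts; without the 8 cells the day-60 sum was 96.8 to 187 CPM, just above Troy-GFP. Fibroblast markers, which include Igf2, summed to 154 to 542 CPM in day-60 and 40.03 to 98.3 CPM in Troy-GFP libraries, without overlap. Without the 8 cells they summed to 74.8 to 307 CPM in day-60, which overlaps Troy-GFP. Pericyte and smooth muscle markers summed to 119.8 to 162 CPM in day-60 and 91.05 to 215 CPM in Troy-GFP libraries, and Rgs5, Kcnj8 and Higd1b were at 0 in both sorts. Mature neuron markers summed to 230.5 to 512 CPM in day-60 and 309.6 to 479 CPM in Troy-GFP libraries. Precursors of oligodendrocytes were represented by 55.4 to 105 CPM in day-60 and 95.2 to 169 CPM in Troy-GFP libraries, and mature oligodendrocytes by 576 to 854 CPM in day-60 and 444 to 659 CPM in Troy-GFP libraries. Of the mature list Mbp, a myelin protein, was lower (16.2, 5.33, 17.3 and 28.7 CPM in day-60, 91.2, 44.5, 40.4 and 36.2 CPM in Troy-GFP; fold -1.75 ± 0.48, adjusted p = 0.0423). With no filter its fold was -1.72 ± 0.44 (adjusted p = 0.028). Car2, a carbonic anhydrase that astroglia and choroid plexus also make, was higher (fold 0.76 ± 0.17, adjusted p = 0.00993), with overlapping ranges. It had 407 to 639 CPM in day-60 and 186 to 413 CPM in Troy-GFP libraries, a large part of the sum of the mature list. That sum is therefore not a measure of oligodendrocyte RNA alone. Without 1 library, calls were lost for Mbp (without day-60 libraries 1, 2 or 3 or Troy-GFP library 1; adjusted p up to 0.186) and Car2 (without Troy-GFP library 4; adjusted p 0.0844). Choroid plexus markers summed to 3613 to 25143 CPM in day-60 libraries and to at most 899 CPM in Troy-GFP libraries, and in day-60 to 344 to 7136 CPM without the 8 cells. Folr1, Clic6 and Kcne2 were at 0 in Troy-GFP. The part of these cell types in the called genes, other than through the 8 cells, was not tested.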

How the data were processed

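The deposited tables hold, for each gene and well, an estimate of transcript molecules made by the authors, and the unit was recorded as other: of 4801006 values above 0, 4800995 equalled the collision correction of a whole number of the available random barcodes (within 1e-06) and 11 stood at saturation. The submitters' processing notes name BWA (0.6.2-r126) and the genome build mm10; the counting tool is not given in the sources used here. Wells with at least 1000 transcripts outside ERCC counted as cells, and as 1 cell is sorted per well no doublet caller was used. The members, the lists and the tests were chosen with earlier results of these data known.

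Transcripts were summed per library. Genes on X and Y were left out, and genes with at least 10 transcripts, scaled to a library of median size, in 4 libraries and 15 in total were tested with limma voom 3.58.1 (R 4.3.3), trimmed-mean scaling and Benjamini-Hochberg adjustment over all genes tested. The estimates are not raw counts, so no count model was used. Named genes were the 14 highest and 14 lowest called genes with at least 50 CPM in the higher sort, no overlap of libraries and a call within the flow cell, the 2 most changed in either direction per list, and 7 fixed genes; 14 further genes were picked out after their values were seen, and some genes that qualified are not reported here. Shares of cells were read after thinning to 1000 transcripts and tested with exact permutations. The fit was tested on simulated data with known changes. Alternatives changed the scaling, filter, test, depth, gate and cells. Intervals and upper limits cover counting error only. Other libraries of the series were not used beyond the levels named.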

Additional observations from a re-analysis of the deposited data

Results flagged for a closer look

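In 78 groups of 4 libraries, 8 had a library far from the other 3, and chance flags about 1 in 20 such groups. Kl was 229.7 CPM in day-60 library 1, which held 4 of the 8 choroid plexus cells, against 37.9 to 46.8 CPM in the other day-60 libraries. The single Troy-GFP transcripts of Prlr (3.42 CPM in library 2) and Kl (4.02 CPM in library 4) stood apart from the other 3 Troy-GFP libraries, which were at 0. Ssbp3 was 202 CPM in Troy-GFP library 4, against 132 to 144 CPM in the others. Stmn1 was 60.3 CPM in day-60 library 4 (77.4 to 78.5 CPM in the others) and 278 CPM in Troy-GFP library 4 (113 to 137 CPM in the others). Genes per cell at equal depth were 742 in Troy-GFP library 2, against 720 to 722 in the other Troy-GFP libraries. The share of cells with Crym was 46.6% in day-60 library 2, against 30.1% to 32.4% in the other day-60 libraries.

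Data outside the comparison also held signals. Day-60 wells with fewer than 500 transcripts, which were not used as cells, had Ttr in 28.6% of wells in the lowest library. The 4 Y-linked genes were at 0 in day-60 libraries and averaged 448 CPM in Troy-GFP libraries.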

How the results depend on the processing

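The 141 calls became 234 with no filter on low counts (14935 genes tested), 26 after thinning each cell to 1000 transcripts (1223 tested), 74 within flow cell HVJH2BGXX, and 2 after leaving out cells with at least 10 per 10000 transcripts from markers of other cell types. That last step removed 277 of 299 day-60 and 145 of 218 Troy-GFP cells, and fewer genes could be tested (1100). Of alternatives chosen after seeing the data, the count was 54 without cells with Egfr or Dll1 (3738 tested) and 13 without cells with other markers, choroid plexus markers not counted (2468 tested). Leaving out 1 library gave 79 to 137 calls, 79 without day-60 library 2 and 83 without Troy-GFP library 4. None of the 61 named called genes changed direction in any fit in which it could be tested. These fits reuse libraries of the main fit. For the highest and lowest genes of the naming rule, the direction within the flow cell was also a condition of being named. Taking the library number as a replicate block gave 184 calls (109 higher, 75 lower) and kept the calls of all 61; deviations of same-numbered libraries correlated at -0.105 to 0.0392, so the numbers do not pair them. The day-60 minus Troy-GFP difference in median transcripts per cell was -402 and turned to 171 without cells with other markers and to 88.2 within the flow cell. With the gate at 20 per 10000, 3 measures reached an adjusted p of 0.0476 by the exact permutation test, namely genes per cell (-14.2), the Thbs4 share (-13.3 percentage points) and the Crym share (14.1). The Agt share, with a main difference of 0.422 points, was -0.0690 with that gate and -6.97 without cells with other markers, and -1.63 to 2.39 over the fits without 1 library, -0.780 without Troy-GFP library 2 and -1.63 without Troy-GFP library 4. The cause of these changes was not tested.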

Other observations

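The symbol Gm1821 stands on chromosomes 11 and 14, and the chromosome 14 row had a fold of 4.65 ± 0.42 in astroglia (adjusted p = 2.10e-09, limma voom). It passed the level filter through the day-60 libraries alone, and with no filter the fold was 4.66 ± 0.37 (adjusted p = 1.10e-11). Reads of near-identical copies could be split between its rows, so its value is uncertain. Over all cells with at least 1000 transcripts, and per 1000000 of all their transcripts, it had 519 to 664 CPM in the day-60 libraries and 13.8 to 29.7 CPM in the Troy-GFP libraries. In the other sorts it had 1535 to 2020 CPM in day-2 tdTomato libraries and 469 to 666 CPM in the mixed day-60 libraries. The day-2 cells came from mice of 8 to 10 weeks, 2 days after 5 mg tamoxifen. The mixed libraries held tdTomato+ cells of the SEZ or olfactory bulb, 60 days after 5 mg tamoxifen, and O4+ oligodendrocytes. Their mice were 8 to 19 weeks old. Ki67-RFP libraries, from Ki67tagRFP mice, had 20.99 to 41.5 CPM, GLAST/EGF libraries 13.6 to 31.6 CPM and Prom1/CD24 libraries 0 to 123 CPM. The mice of these sorts were 8 to 10 weeks old. All 12 libraries with tdTomato+ cells, 4 of them mixed with O4+ oligodendrocytes, were thus above all 16 others. It was picked out after its values were seen.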
